A study of Saccharomyces cerevisiae with 8 samples.

Results

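The genes described here are the 10 members of the coenzyme Q biosynthesis pathway of Saccharomyces cerevisiae, COQ1 to COQ10, chosen by name and each matched to its probe set on the array. All 10 had 1 probe set, none of them of the kind shared between similar sequences, and all 10 were among the 5412 of 5449 yeast genes with a probe set that lay above background and were tested. COQ7 is listed on the array under its older name CAT5. Total RNA came from 4 independent low-iron cultures, given 10 µM ferrous iron, and from 4 independent high-iron cultures, given 300 µM, with 1 Affymetrix array for each culture. All cultures were of the single laboratory strain DBY7286, grown in defined minimal medium at pH 6.1 and 30 °C and harvested at an A600 of 0.5 after about 18 h. All of them, high iron included, also contained 1 mM of the ferrous iron chelator Ferrozine and 1 µM copper sulfate, so that high iron means more iron against the same chelator. The study asked how yeast metabolism responds to iron deficiency, and low against high iron is its only comparison.

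Coenzyme Q, or ubiquinone, is the lipid that carries electrons through the mitochondrial inner membrane from dehydrogenases to the cytochrome bc1 complex. Its ring comes from chorismate by way of 4-hydroxybenzoate, or from 4-aminobenzoate in yeast, and its isoprenoid tail comes from the mevalonate pathway. In yeast mitochondria Coq1 builds the tail and Coq2 joins it to the ring. Coq3, Coq5, Coq6 and Coq7 then methylate and hydroxylate the ring within a membrane-bound assembly that also holds Coq4 and Coq9, while Coq8 is needed for the assembly. Iron enters this pathway directly at Coq7, which holds a di-iron centre, and indirectly at Coq6, a flavin enzyme that draws its electrons from the iron-sulphur ferredoxin Yah1.

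Among the coenzyme Q genes COQ6 fell furthest in low iron, and 5 others fell by less. Of the 10 genes, 6 fell (COQ1, COQ3, COQ5, COQ6, COQ9 and COQ10), none rose, and 4 did not pass the test (COQ2, COQ4, COQ7 and COQ8). Among all 5412 genes tested, 22.7% fell and 16.8% rose, together 39.4% (limma, adjusted p under 0.05). The same 6 genes had low-iron values that all lay below all high-iron values, and in the other 4 the conditions overlapped. Counting both directions, 6 of the 10 genes thus had conditions that did not overlap, beside 38.5% of all tested genes. The median log2 change of the 10 genes, low minus high iron, was -0.19, beside -0.018 for all tested genes. None of the 10 changed 2-fold. A signal from a whole culture cannot tell fewer expressing cells from less RNA in each cell.

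**Figure D1:**
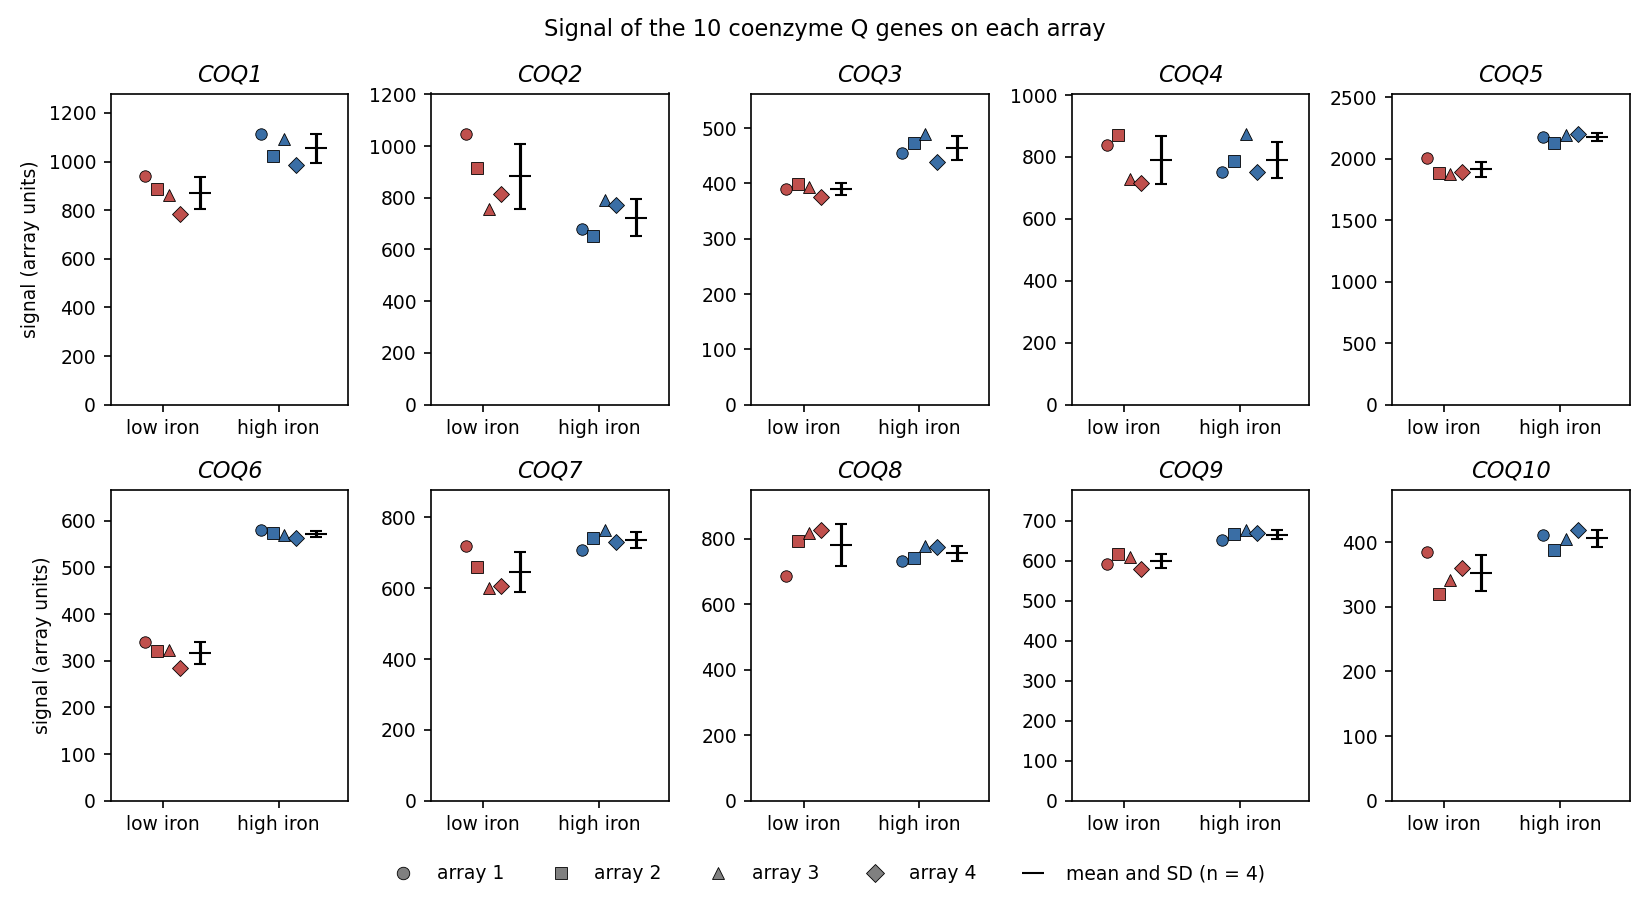
Signal of each coenzyme Q gene (array units, linear axis from 0) on the 4 low-iron arrays (left, red) and the 4 high-iron arrays (right, blue), with array numbers as marker shapes and the mean and SD (n = 4) as black bars. COQ6 shows the widest gap, with low-iron arrays at 283 to 339.8 and high-iron arrays at 563 to 580.2, and COQ2 is the gene with the largest spread in low iron.

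The trimmed mean signal was 500.2 on all 8 arrays, and the number of arrays limits the precision. The background of the arrays, taken from Schizosaccharomyces pombe probe sets, was 5.4 to 8.06, and their brightest probe sets read 6597 to 7706. All signals of the 10 genes, 283 to 2199.7, lay far from both ends. The iron uptake gene FET3, a multicopper ferroxidase, and the cell wall mannoprotein gene FIT1 were higher in low iron by 1.33 and 5.72 on the log2 scale, in the direction of the labels. Low-iron arrays 1 and 2 stood apart from low-iron arrays 3 and 4 on the second principal component, which held 12.1% of the variance. Their median signals of 17 ribosomal RNA probe sets were 2682 and 2567, against 3371 and 3707 on low-iron arrays 3 and 4 and 3744 to 4321 on the high-iron arrays. The part of these differences in the results below was not tested.

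COQ6 encodes the flavin-dependent monooxygenase that adds the first ring hydroxyl after the tail is attached. Its signal was 339.8, 321, 323 and 283 on low-iron arrays 1 to 4, against 580.2, 574, 570.3 and 563 on high-iron arrays 1 to 4. The low-iron cultures were all far below the high-iron cultures, and the high-iron cultures differed little among themselves (SD 7.31). The means were 317 ± 23.8 in low iron and 572 ± 7.31 in high iron (SD, n = 4), so that low iron held 55.4% of the high-iron signal. The log2 change was -0.85 ± 0.067 (SE), or 1.81-fold lower, with a 95% interval of -1.0 to -0.70 and a limma adjusted p of 7.41e-06. Only 3.84% of tested genes fell further. Without low-iron arrays 1 and 2 the change was -0.92.

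COQ7 encodes the di-iron hydroxylase of the penultimate step. Its signal was 719.8, 659.7, 599.7 and 605 on low-iron arrays 1 to 4, against 709, 742, 764 and 731 on high-iron arrays 1 to 4. The conditions overlapped through low-iron array 1, which read above the lowest high-iron array, while the other low-iron arrays lay below all high-iron arrays. The means were 646 ± 56.1 in low iron and 736 ± 23.0 in high iron (SD, n = 4). The log2 change of -0.19 ± 0.070 (SE; 95% interval -0.35 to -0.037, not adjusted for multiple tests) narrowly missed the threshold, with a limma adjusted p of 0.0502. The result depended on which low-iron arrays were used, and over 21 alternatives the adjusted p ran from 0.00347 to 0.26. Without low-iron array 1 the gene passed, at -0.25 (adjusted p = 0.00986), and without low-iron arrays 1 and 2 at -0.29 (adjusted p = 0.00347). Without low-iron arrays 3 and 4 the change was -0.095 (adjusted p = 0.26).

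The protein that works with Coq7 is Coq9, a lipid-binding protein that presents the substrate to it. COQ9 read 591, 618, 610.1 and 580.3 on low-iron arrays 1 to 4, against 651, 667, 677 and 669 on high-iron arrays 1 to 4. All low-iron cultures lay below all high-iron cultures, by a small margin. Its means were 599.8 ± 17.1 in low iron and 666 ± 10.8 in high iron (SD, n = 4), and its log2 change was -0.15 ± 0.052 (SE), with an adjusted p of 0.0419 by limma. This call was lost in 11 of 21 alternatives, among them quantile normalization, median centring, the block of description numbers (adjusted p = 0.0661) and leaving out any single array other than low-iron array 2 (adjusted p from 0.0306 to 0.13 over the alternatives).

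Because signals of different probe sets have no common scale, the hydroxylase genes were compared through the log2 ratio of their signals within each array, which shows whether their changes were unequal. The COQ7 to COQ6 ratio was 0.89 to 1.09 on the low-iron arrays, against 0.29 to 0.42 on the high-iron arrays, so that the conditions did not overlap. It differed by 0.66 on the log2 scale between low and high iron (p = 0.0286 by a two-sided exact permutation test, and 0.0571 adjusted over the 2 ratios tested). No smaller p can be had from 4 arrays against 4, so the adjusted value could pass only if both ratios reached it. Both ratios were chosen with earlier results of these data known, which the p-values do not take into account. The COQ7 to COQ9 ratio was -0.025 to 0.28 on the low-iron arrays, against 0.12 to 0.17 on the high-iron arrays. Its difference of -0.042 was smaller than the spread among the low-iron arrays (SD 0.13, n = 4; exact permutation test, p = 0.571). Its size depended on the arrays used, and it was -0.10 without low-iron array 1 (adjusted p = 0.0286, the smallest those arrays allow). It was 0.0012 with low-iron array 3 left out, and 0.044 with arrays 3 and 4 of that group left out. COQ6 was then set against each of the other 9 genes in the same way, a choice made after its change was seen and therefore given without a test. In all 9 cases the low-iron ratios lay below the high-iron ratios, by 0.57 (against COQ1) to 1.14 (against COQ2) on the log2 scale.

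**Figure D2:**
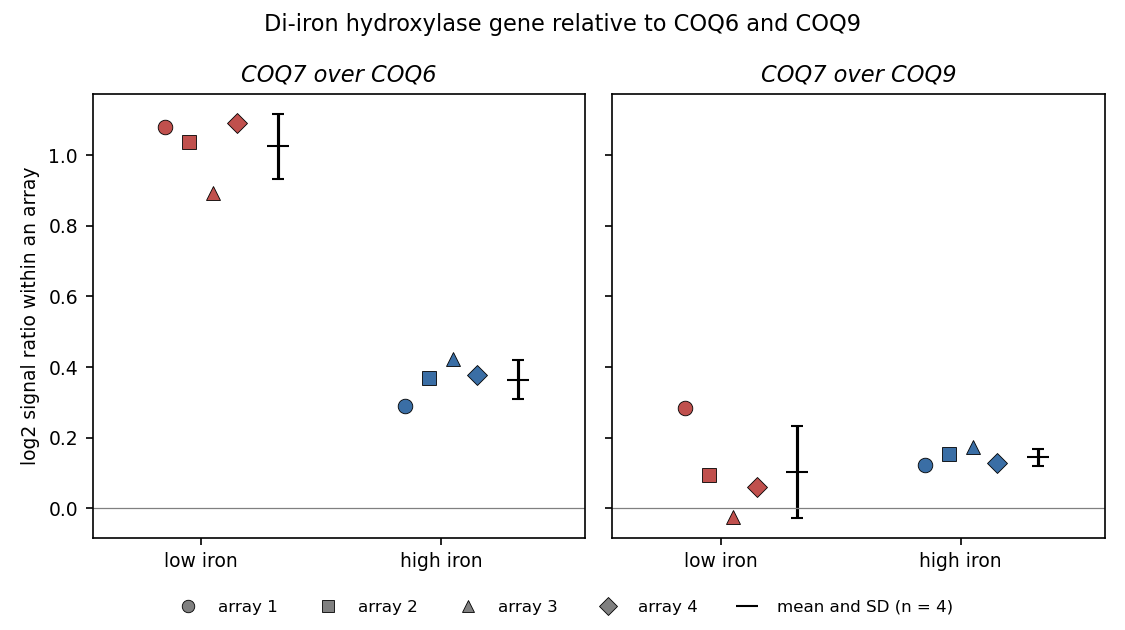
Log2 ratio of the COQ7 signal to the COQ6 signal (left) and to the COQ9 signal (right) within each array, for 4 low-iron and 4 high-iron arrays, with the mean and SD (n = 4) as black bars. The COQ7 to COQ6 ratio is higher on every low-iron array than on any high-iron array, and the COQ7 to COQ9 ratio overlaps between the conditions.

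The tail and its attachment are the work of COQ1 and COQ2, whose mean signals differed in opposite directions. COQ1, the hexaprenyl diphosphate synthase gene, read 942, 887, 863 and 784 on low-iron arrays 1 to 4, against 1113, 1024, 1094 and 987 on high-iron arrays 1 to 4. No low-iron value reached the lowest high-iron value. Its means were 869 ± 65.5 in low iron and 1055 ± 59.0 in high iron (SD, n = 4), and its log2 change was -0.28 ± 0.070 (SE), with an adjusted p of 0.00934 by limma. This call held in all 21 alternatives, with changes of -0.36 to -0.20.

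COQ2 encodes the transferase that joins the tail to the ring. It read 1046, 914, 758 and 816 on low-iron arrays 1 to 4, against 678, 650.5, 792 and 774 on high-iron arrays 1 to 4. Low-iron arrays 1 and 2 were well above all high-iron arrays, but low-iron array 3 lay within their range. The means were 884 ± 126 in low iron and 724 ± 69.8 in high iron (SD, n = 4), a log2 difference of 0.28 ± 0.11 (SE) that did not pass (limma adjusted p = 0.0559). It passed under quantile normalization (0.33, adjusted p = 0.035), under median centring (0.32, adjusted p = 0.0301), without low-iron array 3 (0.35, adjusted p = 0.021) and without low-iron arrays 3 and 4 (0.44, adjusted p = 0.00561). Without low-iron arrays 1 and 2 the difference was 0.13 (adjusted p = 0.292, the highest over the 21 alternatives).

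Both methyltransferase genes fell by small amounts with little scatter. COQ3, whose product methylates ring oxygens, read 389.99, 399.3, 394 and 375 on low-iron arrays 1 to 4, against 455, 473, 489 and 439.5 on high-iron arrays 1 to 4. The low-iron values lay in a narrow band below all high-iron values. Its means were 389 ± 10.5 in low iron and 464 ± 21.6 in high iron (SD, n = 4), and its log2 change was -0.25 ± 0.060 (SE), with an adjusted p of 0.00731 by limma.

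COQ5 encodes the methyltransferase that acts on a ring carbon. It read 2003, 1885, 1873 and 1893 on low-iron arrays 1 to 4, against 2179, 2130.1, 2189 and 2199.7 on high-iron arrays 1 to 4. Its scatter was small enough that a log2 change of -0.18 ± 0.043 (SE), from means of 1913 ± 60.3 in low iron and 2175 ± 30.8 in high iron (SD, n = 4), passed with a limma adjusted p of 0.00672. COQ3, COQ5 and COQ6, like COQ1, kept their direction and their call in all 21 alternatives.

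**Figure D3:**
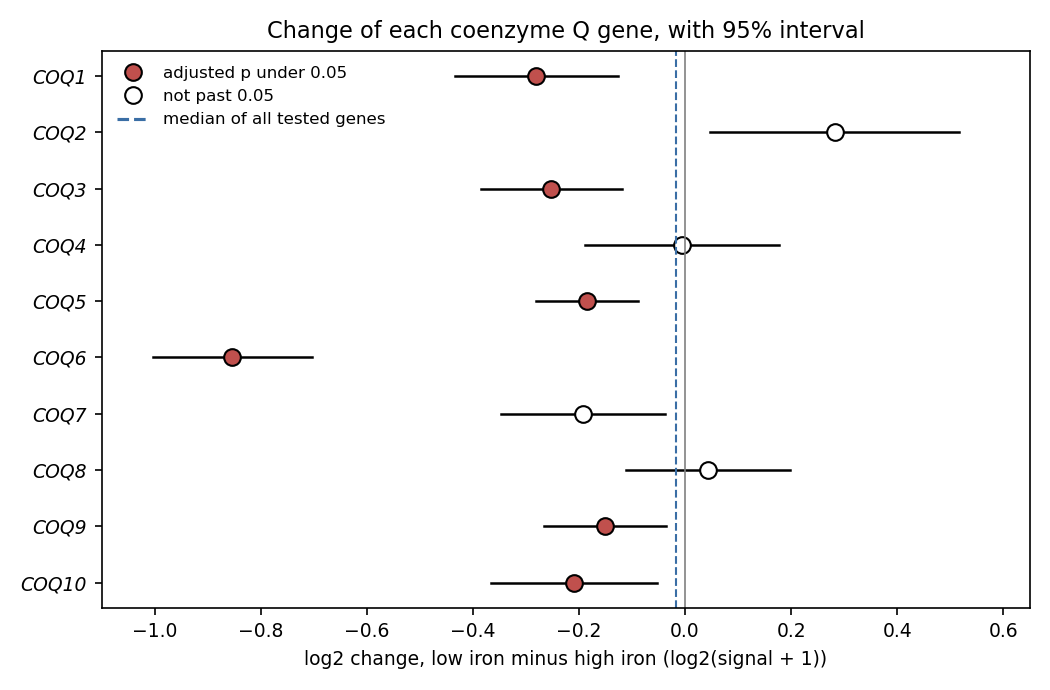
Log2 change of each coenzyme Q gene, low minus high iron, on the log2(signal + 1) scale, with its 95% interval from limma, not adjusted for multiple tests. Filled points passed an adjusted p of 0.05, and the dashed line is the median of all 5412 tested genes at -0.018; COQ6 lies at -0.85 and all other genes lie between -0.28 and 0.28.

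Among the genes that organise the pathway, COQ4 and COQ8 showed no detectable difference. COQ4, whose product is a core member of the membrane assembly, read 839.5, 870.4, 729 and 716 on low-iron arrays 1 to 4, against 751, 787, 874 and 751 on high-iron arrays 1 to 4. Its conditions overlapped almost completely, with means of 789 ± 77.5 in low iron and 791 ± 58.1 in high iron (SD, n = 4). The log2 difference was -0.0056, with a 95% interval of -0.19 to 0.18 (limma adjusted p = 0.963).

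COQ8, an atypical kinase-like gene whose product has ATPase activity and stabilises the assembly, read 686, 791, 818 and 826 on low-iron arrays 1 to 4, against 732, 740.3, 777 and 774 on high-iron arrays 1 to 4. Low-iron array 1 was the lowest of all 8 arrays and the other low-iron arrays were the highest. Its means were 780.4 ± 64.8 in low iron and 756 ± 23.1 in high iron (SD, n = 4), a log2 difference of 0.043 with a 95% interval of -0.11 to 0.20 (limma adjusted p = 0.65). These intervals do not show that COQ4 and COQ8 were unchanged.

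COQ10 encodes a lipid-binding protein that coenzyme Q needs in order to work in respiration rather than an enzyme of its synthesis. It read 385, 319.6, 342 and 359.7 on low-iron arrays 1 to 4, against 411, 388, 405 and 419 on high-iron arrays 1 to 4. The highest low-iron value lay just below the lowest high-iron value. Its means were 352 ± 27.8 in low iron and 406 ± 13.0 in high iron (SD, n = 4), and its log2 change was -0.21 ± 0.071 (SE), with an adjusted p of 0.0381 by limma. The call was lost in 10 of 21 alternatives, among them when low-iron array 3, any single high-iron array or low-iron array 2 was left out (-0.16 for the last of these, adjusted p = 0.0963), median centring (-0.17, adjusted p = 0.0774), quantile normalization (-0.15, adjusted p = 0.118) and the block of description numbers (-0.20, adjusted p = 0.0686), with adjusted p from 0.0133 to 0.118 over all of them.

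The 10 genes varied more among low-iron than among high-iron cultures in all cases but COQ3. The coefficient of variation was 2.69% to 14.3% in low iron and 1.28% to 9.64% in high iron. Low-iron arrays 1 and 2 averaged higher than arrays 3 and 4 by 0.31 on the log2 scale for COQ2, by 0.24 for COQ4 and by 0.19 for COQ7. They were also higher by 0.15 for COQ1 and by 0.13 for COQ6, while COQ8 was lower there by 0.16. COQ3, COQ5, COQ9 and COQ10 differed by less than 0.05 between these array pairs. The genes most like COQ7 by Pearson correlation over the 8 arrays were YOX1 (r = 0.992), PGC1 (r = 0.984) and SEN34 (r = 0.983). COQ5, COQ1 and COQ6 were the coenzyme Q genes nearest to COQ7 (r = 0.876, 0.861 and 0.821), while COQ2 and COQ8 had negative values (r = -0.12 and -0.67). All of these share the same 8 arrays and the same iron contrast, and are given as a description.

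Of 11 genes from the shikimate pathway to 4-hydroxybenzoate and 4-aminobenzoate, 5 fell, 1 rose and 5 did not pass, beside 22.7% that fell and 16.8% that rose among all tested genes. Their median log2 change was -0.058. The largest fall was that of ARO7, chorismate mutase, at 924 ± 113 in low iron and 1435 ± 64.9 in high iron (SD, n = 4), a log2 change of -0.64 (limma adjusted p = 2.59e-04). ARO3, which starts the shikimate pathway, fell by 0.38, the tyrosine gene TYR1 by 0.29 and the aromatic aminotransferase gene ARO9 by 0.48. HFD1, the aldehyde dehydrogenase that forms 4-hydroxybenzoate, fell by 0.31 (adjusted p = 0.0107), with 866 ± 94.8 in low iron and 1071 ± 47.5 in high iron. The gene that rose was ARO1, the multifunctional enzyme of the middle of the shikimate pathway, by 0.22. ABZ1 and ABZ2, of 4-aminobenzoate synthesis, did not pass (-0.058 and 0.21).

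For the tail, of 10 genes from acetoacetyl-CoA to the prenyl diphosphates, 3 rose, 2 fell and 5 did not pass, so that the falls were near the 22.7% of all tested genes, and 16.8% of those rose. Their median log2 change was 0.090. HMG2, an isozyme of hydroxymethylglutaryl-CoA reductase, rose by 0.57, with 1788 ± 45.9 in low iron and 1203 ± 35.5 in high iron (SD, n = 4; limma adjusted p = 1.06e-05), and MVD1, mevalonate diphosphate decarboxylase, by 0.40. The other isozyme gene, HMG1, rose by 0.19, a call lost in 7 of 21 alternatives, among them without low-iron array 1 or 2 or high-iron array 1, 2 or 4 (adjusted p up to 0.176, with a change of 0.12, without low-iron arrays 1 and 2). IDI1, the isopentenyl diphosphate isomerase gene, fell by 0.25 and BTS1, geranylgeranyl diphosphate synthase, by 0.39. ERG20, which makes the farnesyl diphosphate that Coq1 extends, read 4641 ± 269 in low iron and 4657 ± 263 in high iron and did not pass.

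Of 7 tested genes for proteins tied to coenzyme Q synthesis or its distribution, 1 fell and none rose, beside the 22.7% that fell and 16.8% that rose among all tested genes. The gene that fell was COQ11, whose product associates with the assembly, with 581 ± 48.8 in low iron and 705 ± 29.9 in high iron (SD, n = 4), a log2 change of -0.28 (limma adjusted p = 0.00941). The genes of the electron supply to Coq6 did not pass, with log2 differences of -0.088 for the ferredoxin gene YAH1 (95% interval -0.22 to 0.045) and -0.065 for the ferredoxin reductase gene ARH1. PTC7, a phosphatase that acts on Coq7, read 1075 ± 61.0 in low iron and 1106 ± 50.3 in high iron (adjusted p = 0.606). PUF3, an RNA-binding protein whose targets include the COQ5 transcript, differed by 0.27 and OCT1, a peptidase that processes imported mitochondrial proteins, by -0.19, without passing. OCT1 passed when low-iron array 1 was left out (-0.28, adjusted p = 0.0352) and when low-iron arrays 1 and 2 were (-0.36, adjusted p = 0.00901), and PUF3 under quantile normalization (adjusted p = 0.00567). The list also holds CQD1, which was not analysed here.

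Most genes for the proteins that use coenzyme Q fell, and are described here by counts and medians, with no test between them and the coenzyme Q genes. Of 10 genes, for dehydrogenases that reduce coenzyme Q or, with CIR2, a relative of such enzymes, 7 fell and none rose. Their median log2 change was -1.70. The falls include SDH1 to SDH4 (-2.90, -2.51, -1.95 and -1.95), which all belong to a single enzyme, succinate dehydrogenase, and CIR2 (-2.99). The median therefore does not describe each dehydrogenase. All 9 tested nuclear genes of the bc1 complex, which oxidises coenzyme Q, fell, with a median of -1.35. Among all tested genes 22.7% fell and 16.8% rose. NDI1, the internal NADH dehydrogenase that feeds coenzyme Q from the matrix, read 165 ± 48.3 in low iron and 444 ± 46.4 in high iron (SD, n = 4), a log2 change of -1.46 (limma adjusted p = 8.88e-05). RIP1, the Rieske iron-sulphur protein at which coenzyme Q is oxidised, read 221 ± 81.7 in low iron and 1247 ± 93.3 in high iron. Its log2 change was -2.56 (limma adjusted p = 8.64e-06). The bc1 genes QCR8, COR1 and CYT1 changed by -1.35, -1.35 and -2.83. NDE1, an external NADH dehydrogenase, fell by 0.66, a call lost without low-iron array 2 or any single high-iron array (adjusted p up to 0.0727), with changes of -1.06 to -0.26 over the alternatives. NDE2, the glycerol-3-phosphate dehydrogenase gene GUT2 and the lactate dehydrogenase gene DLD1 read -0.19, -0.059 and -0.080 and did not pass. GUT2 passed without low-iron arrays 1 and 2 (-0.21, adjusted p = 0.0235), which brought the count of falls to 8, and was at 0.088 without low-iron arrays 3 and 4. Among all tested genes 1293 fell without low-iron arrays 1 and 2, against 1226 in the main analysis. COQ6, at -0.85, fell further than QCR6 (-0.38) and less far than the other 8 bc1 genes (-2.83 to -1.14).

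**Figure D4:**
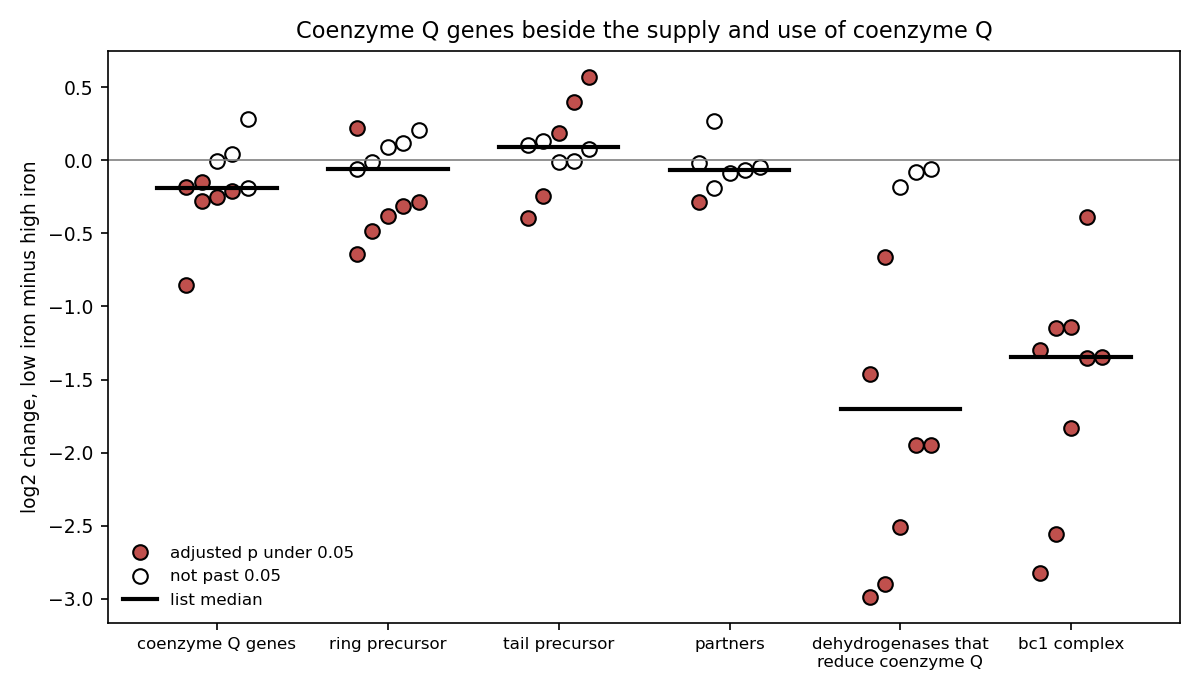
Log2 change, low minus high iron, of the tested genes of 6 lists: the coenzyme Q genes, those that supply its ring and tail, their partners, the dehydrogenases that reduce coenzyme Q and the bc1 complex. Each point is a gene, filled where its adjusted p was under 0.05, and the black bar is the list's median, from 0.090 for tail supply to -1.70 for the dehydrogenases, with -0.19 for the coenzyme Q genes.

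Regulators of respiratory and iron-using genes were followed as background to these values. HAP4, the activating subunit of the HAP complex that drives many respiratory genes, read 246, 524, 835 and 794 on low-iron arrays 1 to 4, against 1001, 1163, 1006 and 1095 on high-iron arrays 1 to 4. It was thus lowest on low-iron arrays 1 and 2. There COQ1, COQ2, COQ4, COQ6 and COQ7 averaged higher than on arrays 3 and 4, and COQ8 averaged lower. COQ3, COQ5, COQ9 and COQ10 differed little between these array pairs. The log2 change of HAP4 was -0.97 (limma adjusted p = 0.033). That call was lost without low-iron array 2 or any single high-iron array (adjusted p up to 0.0812), and the change ran from -1.56 to -0.39 over the alternatives. HAP2 fell by 0.31, while HAP3 and HAP5, the other DNA-binding subunits, did not pass (-0.039 and -0.068). TIS11, which promotes the decay of transcripts for iron-using proteins, was at 3742 ± 150 in low iron and 359 ± 44.4 in high iron (SD, n = 4), while its relative CTH1 fell by 0.48. AFT1, an activator of iron uptake genes, rose by 0.97. In all, 2 of the 8 regulators rose and 3 fell, beside 16.8% that rose and 22.7% that fell among all tested genes. Any part of these regulators in the values of the coenzyme Q genes was not tested.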

How the data were processed

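The authors' deposited values are linear MAS5 intensities, with 1 value for each probe set on each array. MAS5 is named in the submitters' processing notes, and its settings are not stated there. The nearly equal trimmed means (2% taken from each end) show that arrays had been scaled to a common level, which hides a change in total mRNA per cell.

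Of 10928 probe sets, 5498 were matched to 5449 S. cerevisiae genes through the platform's gene identifiers and the R64 gene table of RefSeq, used for names and gene order only. The brightest probe set stood for a gene. A gene was tested when its mean exceeded 5.48, a level that 95% of the 1746 S. pombe probe sets did not pass. Low iron was compared with high iron on log2(signal + 1) by limma 3.58.1 under R 4.3.3, two-sided, using lmFit and an intensity-trended eBayes, and p-values were adjusted by Benjamini-Hochberg over 5412 genes at a threshold of 0.05. Fold changes are on that scale. The procedure was checked on simulated data. Ratios were compared by exact permutation. Plots were made in matplotlib 3.10.9.

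The members, the 6 other pathway lists and the tests were chosen with earlier results of these data known. All 10 members are named, with up to 4 genes per other list by adjusted p, 8 further genes whatever their result (NDI1, HFD1, PTC7, COQ11, PUF3, HAP4, TIS11 and RIP1), FET3 and FIT1 as check of the labels, and the 3 genes most correlated with COQ7. ARO1, ABZ1, ABZ2, HMG1, ERG20, ARH1, SDH4, NDE1, NDE2, GUT2, DLD1, QCR6, HAP3, HAP5 and the neighbouring genes fall outside this rule. They were chosen after their values were seen. Alternatives changed the pseudocount (16 or 64), the scaling (quantile or median), the filter (none, or one that 99% of them did not pass), the trend, the array weights and the choice of probe set, raised values to background, added a block of description numbers, or left out single arrays, low-iron arrays 1 and 2, or low-iron arrays 3 and 4.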

Additional observations from a re-analysis of the deposited data

Results flagged for a closer look

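COQ5 on low-iron array 1 stood apart from the other low-iron arrays, at 2003 against 1873 to 1893. The gap to the nearest array was 0.846 of the whole range, past the 95% critical value of Dixon's test for 4 samples. Of 20 groups of 4 values examined, 1 was past it, and chance gives about 1 in 20. The high-iron arrays read 2130.1 to 2199.7, and without low-iron array 1 the log2 change of COQ5 was -0.21 (limma adjusted p = 0.0046).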

How the results depend on the processing

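COQ1, COQ3, COQ5 and COQ6 kept their direction and their call in all 21 alternatives. COQ6 ran from -0.92 to -0.74 on the log2 scale. The number of coenzyme Q genes that fell was 4 to 7, and 4 under quantile normalization, median centring and the block of description numbers, where COQ9 and COQ10 lost their call. Among all tested genes 1064, 1066 and 1086 fell there, against 1226 in the main analysis. It was also 4 without low-iron arrays 3 and 4, where 1429 of all tested genes fell. The number of coenzyme Q genes that rose, 0 in the main analysis, was 1 (COQ2) under quantile normalization, under median centring and without low-iron arrays 3 and 4, and 0 to 1 when single arrays were left out. Among all tested genes 1209, 1143 and 1238 rose in the settings named, against 907, and 694 to 1005 without single arrays. The median of the 10 genes was -0.23 to -0.15, beside -0.022 to 0.020 for all tested genes. With array weights COQ7 passed (-0.22, adjusted p = 0.018). COQ4, which did not pass in any alternative, turned to 0.032 under quantile normalization and median centring, 0.12 without low-iron arrays 3 and 4 and 0.0028 with the block of description numbers, and was -0.055 to 0.043 without single arrays. COQ8, likewise not past the threshold, turned to -0.036 without low-iron arrays 3 and 4. The COQ7 to COQ6 ratio difference was 0.64 to 0.71 without single arrays and passed without low-iron array 1 (adjusted p = 0.0286), where both ratios reached the smallest p. The COQ7 to COQ9 difference was -0.10 to 0.0012 without single arrays, passed without low-iron array 1 (-0.10) and turned to 0.044 without low-iron arrays 3 and 4. The number of ring supply genes that rose, 1 in the main analysis, was 2 under either scaling and 4 without low-iron array 3 or without low-iron arrays 3 and 4. Tail supply genes that rose numbered 5 without arrays 3 and 4, against 3. Partners that fell numbered 2 without low-iron array 1 or without arrays 1 and 2, against 1, and 1 rose under quantile normalization, against 0. The causes were not tested. No paired analysis was possible because the labels give the cultures of the conditions no shared replicate numbers. The members' signals lie well above background.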

Other observations

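The genes next to the coenzyme Q genes in the RefSeq gene table gave these values. Of 20 protein-coding neighbours, 1 on each side of a member, 18 were tested, of which 4 fell, 3 rose and 11 did not pass, shares close to the 22.7% that fell and 16.8% that rose among all tested genes. The values that follow are a description. GND2, a 6-phosphogluconate dehydrogenase gene next to COQ6, was lower in low iron, as COQ6 was. It read 41.7 in low iron and 78.4 in high iron, a log2 change of -0.90 (limma adjusted p = 6.46e-04), beside -0.43 on the log2(signal + 64) scale. ENO1, on the other side of COQ6, read 5774 in low iron and 5499 in high iron and did not pass (adjusted p = 0.341). Both neighbours of COQ9 fell, MSS51, a translational activator for cytochrome c oxidase subunit COX1, by 0.60 and the prefoldin subunit gene YKE2 by 0.36, each further than COQ9. IAH1 next to COQ7 rose by 0.31, where COQ7 itself read -0.19. MVD1, next to COQ2, belongs to the tail supply genes and rose by 0.40, beside a difference of 0.28 for COQ2 that did not pass. The neighbour of COQ10 that fell was CSI2, by 0.53, and the neighbour of COQ4 that rose was MSC2, by 0.34. Whether position bears on these values was not tested.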
